A study of Mus musculus with 6 samples.

Results

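Cytosolic ribosomal protein genes encode the protein part of the large and small subunits of the ribosome. They were taken from the liver count table by symbol: names that begin with Rpl or Rps and a digit, together with Rpsa, Rplp0, Rplp1 and Rplp2, leaving out the S6 kinases (Rps6k) and pseudogenes named with -ps. This gave 93 of 54532 genes, 55 named for the large subunit and 38 for the small subunit. They comprised 77 canonical ribosomal proteins (46 large, 31 small), 15 paralogs and Rps19bp1, which binds a ribosomal protein and is not one itself. Among the paralogs, the annotation gives Rpl6l, Rpl32l, Rps3a2, Rps3a3 and Rps12l1 as processed pseudogenes. It gives Rpl37rt and Rps4l as transcribed processed pseudogenes. Their names lack -ps, so the rule kept them. Liver RNA came from male C57BL/6J mice that were made insulin resistant (IR) on a high-fat diet (HFD) for 6 weeks from 8 weeks of age. Both groups were then fasted for 16 h. One group received intraperitoneal insulin at 0.75 units for each kg of weight and the other its vehicle, bovine serum albumin (BSA), and livers were taken 6 h later. There were 3 libraries per group, numbered as in the labels, and no insulin-treated mouse on a chow diet was compared here. Per the study, the 3 mice of a group were independent animals.

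Ribosomal proteins assemble with ribosomal RNA in the nucleolus, and most are made in matched amounts because a subunit needs 1 copy of each. Their mRNAs are among the most abundant in the liver. Many begin with a terminal oligopyrimidine (TOP) tract, a cytosine followed by a stretch of pyrimidines at the cap. Insulin and nutrients, through the kinase complex mTORC1 and the RNA-binding protein LARP1, are known for controlling the translation of such mRNAs more than their amount. RNA sequencing of whole tissue measures that amount and not translation, and in bulk tissue fewer cells of a type cannot be told apart from less RNA per cell.

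The letters around the annotated transcription start showed which members carried a TOP-like tract there. RefSeq windows (GRCm38.p6) were matched by symbol for 68 members. A run of at least 6 pyrimidines that opened with C within 5 bases of the start, on the sense strand, was present in 28 of the 68 (41.2%) and in 11.9% of all 27025 genes with a window. The share was 38.1% of 42 large-subunit genes and 46.2% of 26 small-subunit genes. The 7-base motif CCGGAAG, the core bound by ETS-family factors, occurred on either strand of the 300-base window (250 before and 50 after the start) in 38.2% of members and 9.93% of all genes. TATAAA occurred on either strand in 11.8% of members and 15.7% of all genes. A match is a description of letters at one annotated start, and liver may use another. Below are windows of 15 bases before to 15 bases after the start, with the run in capitals, for the members with a window that met the criteria of the comparison (Rps27, Rpl26, Rps12 and Rps10), for the 3 with a window that were lowest in 1 vehicle library (Rpl7a, Rpl28 and Rpl35), and for Rps6, the substrate of S6 kinase. The choice was made after their values were seen.
Rps27, chr3:90213634-90213663, minus strand: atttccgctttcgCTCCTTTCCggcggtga
Rpl26, chr11:68901551-68901580, plus strand: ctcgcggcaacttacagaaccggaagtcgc
Rps12, chr10:23787195-23787224, minus strand: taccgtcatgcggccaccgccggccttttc
Rps10, chr17:27635230-27635259, minus strand: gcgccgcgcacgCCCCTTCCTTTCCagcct
Rpl7a, chr2:26910792-26910821, plus strand: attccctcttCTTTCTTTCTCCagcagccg
Rpl28, chr7:4792950-4792979, plus strand: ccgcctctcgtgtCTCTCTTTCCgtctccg
Rpl35, chr2:39005117-39005146, minus strand: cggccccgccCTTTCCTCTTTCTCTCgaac
Rps6, chr4:86857353-86857382, minus strand: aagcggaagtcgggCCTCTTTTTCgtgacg
Of the 8, Rpl26 and Rps12 had no such run at this start, and the run was longest in Rpl35, at 16 bases. Among tested members, the 27 with a run had a median log2 fold change (insulin minus vehicle) of −0.01, with 13 higher and 14 lower, and the 37 with a window but no run had a median of −0.14, with 10 higher and 27 lower. The members with a run also lay lower in vehicle replicate 2, a library that stood apart, where their median log2 deviation from the other libraries was −0.37, beside −0.01 for those without a run. Its part in the contrast was not tested.

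The libraries held 18449986 to 21827619 counts assigned to genes. The members took 1.548% (95% exact binomial interval 1.543 to 1.554), 1.507% (1.502 to 1.512) and 2.197% (2.191 to 2.203) of the counts in vehicle replicates 1, 2 and 3, and 1.715% (1.710 to 1.721), 1.614% (1.609 to 1.620) and 1.728% (1.723 to 1.734) in insulin replicates 1, 2 and 3. These intervals cover counting error only. The highest share was thus in a vehicle library and so was the lowest. By share, vehicle replicate 1 lay below all 3 insulin libraries and nearer to vehicle replicate 2. In the levels of single genes given below, vehicle replicates 2 and 3 stood apart from the other 4 libraries. There, vehicle replicate 1 lay close to the insulin libraries. The identity of the tissue was plain from hepatocyte markers, all 7 of which were detected, and 4 of 5 exocrine pancreas markers (Ctrb1, Cpa1, Prss2 and Pnlip) were at 0 in all 6 libraries.

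A low-count filter kept 88 members (51 large, 37 small) among 13377 genes tested. Those that did not pass were Rpl3l, the muscle paralog of Rpl3, the testis paralogs Rpl10l and Rpl39l, and the intronless Rpl32l and Rps12l1. Their counts ranged from 0 to 4 in any library. The lowest members that passed were Rps10, with 6 to 30 counts, and Rps3a3, with 18 to 35 counts. Per kilobase of transcript, levels over the 6 libraries ran from 0.942 to 972 CPM (counts scaled to the normalized size of the library), with a median of 173 for the large and 204 for the small subunit, against 4.30 for all genes tested. In the large subunit the 5 most abundant members per kilobase were Rplp1, a protein of the acidic stalk that recruits elongation factors (972 CPM per kb), Rpl10, which helps shape the peptidyl transferase centre (651), Rpl26 (503), Rpl7 (412) and Rpl13 (398). In the small subunit Rps18 (566), Rps14 (511), Rps27 (459) and Rps2 (434) were among the most abundant. The order among the small-subunit genes was closer than the spread of the vehicle libraries, whose coefficient of variation was 19.6% for Rps18 and 63.4% for Rps27.

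Most ribosomal protein mRNAs had slightly lower fitted levels in the livers of insulin-treated IR mice. Both the direction and the size depended on single libraries and on the scaling between libraries. Of the 88 tested, 61 were lower and 27 higher with insulin, with a median log2 fold change of −0.14, beside −0.02 over all 13377 genes, of which 6876 were lower. In the large subunit 34 of 51 were lower (median −0.12), and in the small subunit 27 of 37 were lower (median −0.23). Vehicle replicate 3 had the highest level for 57 of the 88 members, and 85 of 88 there lay above the median of the other 5 libraries. With vehicle replicate 3 left out, 39 were lower and 49 higher, and the medians were 0.11 for the large and −0.07 for the small subunit. With vehicle replicate 2 left out, 82 were lower and 6 higher, and the medians were −0.22 and −0.26. With vehicle replicate 1 left out, 65 were lower and 23 higher, with medians of −0.15 and −0.35, and without insulin replicate 3 the large-subunit median was −0.05.

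No member, and no gene in the table, passed an adjusted p of 0.05 in edgeR's quasi-likelihood test, where the lowest value was 0.852. Before adjustment, 383 genes had a p under 0.05 in edgeR, 507 in DESeq2 and 213 in limma-voom with quality weights, and in the latter tools no gene passed an adjusted p of 0.05 either. With 3 libraries a group, the smallest two-sided p that exact permutation allows is 0.10, so no such test was run for single genes. The methods of the study used DESeq2 and called a gene changed at an unadjusted p under 0.05 and a log2 fold change of at least 0.35 in either direction. Here the same criteria were applied to edgeR unless another tool is named. By these criteria 6 members were called, beside 383 (2.86%) of all genes tested: 5 were lower (5.68% of 88, beside 249 genes or 1.86% of all) and 1 was higher (beside 134 genes). With DESeq2, 9 members were called, all lower (beside 2.68% of all genes lower), and Rps10 was not among them. The adjusted p of every tested member lay between 0.852 and 0.999. Of the 6 called with edgeR, 3 were large-subunit and 3 were small-subunit genes.

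**Figure D1:**
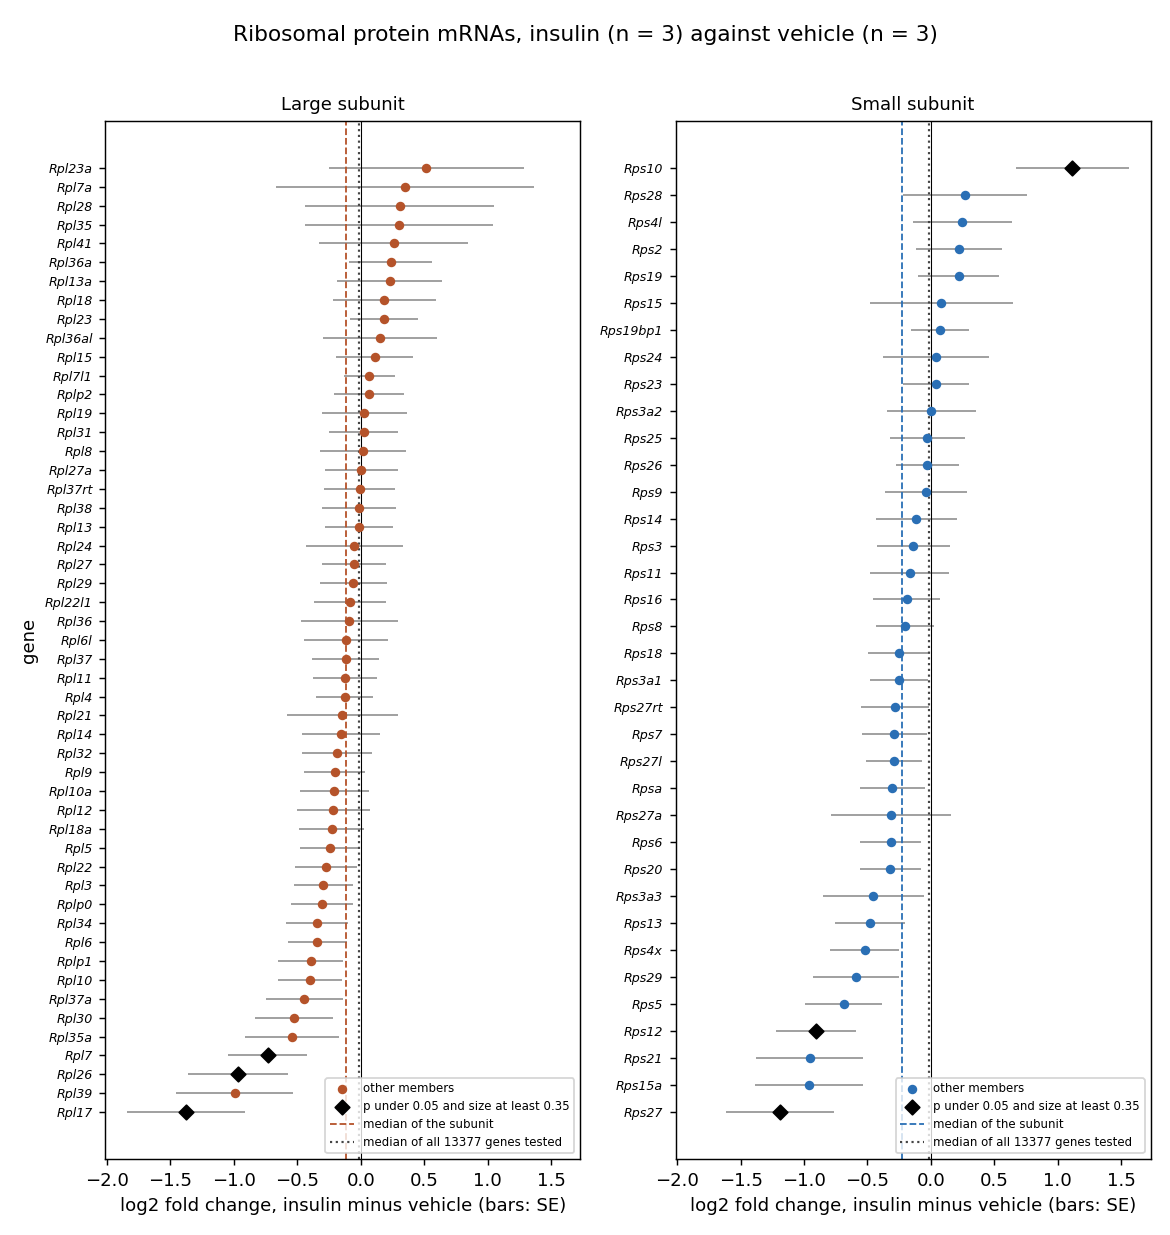
Log2 fold change (insulin minus vehicle, n = 3 each) of 87 of the 88 tested members by subunit, with bars for the standard error. Black diamonds mark the 6 that met the criteria of the study in edgeR. A dashed line gives the median of the subunit and a dotted line the median of all genes tested. Most points lie left of 0, the 5 lower members at −0.73 or below, and the widest bars belong to Rpl7a, Rpl23a, Rpl28 and Rpl35.

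Rps12 is a small-subunit protein encoded on chromosome 10 (23785183 to 23787275, minus strand), in a gene that also hosts snoRNAs. It measured 93.7, 146 and 214 CPM in vehicle replicates 1 to 3 and 84.6, 82.3 and 75.2 CPM in insulin replicates 1 to 3. All 3 vehicle libraries were above all 3 insulin libraries, and replicate 3 was the highest. The log2 fold change was −0.91 ± 0.31 (SE; edgeR adjusted p = 0.852). Without vehicle replicate 2 it was −0.93, and without vehicle replicate 3 it was −0.57 and missed the criteria.

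Rps27, a zinc-finger protein of the small subunit (chromosome 3, 90212522 to 90213651, minus strand), was read at 112, 377 and 171 CPM in the vehicle livers. In the insulin livers it was read at 98.2, 97.9 and 93.2 CPM. The groups did not overlap, and the excess was greatest in vehicle replicate 2. The log2 fold change of −1.19 ± 0.42 (SE; edgeR adjusted p = 0.852) became −0.55 without vehicle replicate 2 and still met the criteria.

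Rpl17, which lines the peptide exit tunnel, had 72.1, 285 and 131 CPM across vehicle replicates 1 to 3, and insulin replicates 1 to 3 had 62.9, 72.0 and 53.0 CPM. Vehicle replicate 1 and insulin replicate 2 were nearly level, so the groups barely separated. The log2 fold change was −1.38 ± 0.47 (SE; edgeR adjusted p = 0.852), and it was −0.69 without vehicle replicate 2, where it still met the criteria.

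Rpl26, a large-subunit protein that also binds p53 mRNA (chromosome 11, 68901583 to 68906989, plus strand), had 227, 666 and 317 CPM (vehicle) compared with 217, 201 and 202 CPM (insulin). Rpl7 (chromosome 1, 16101295 to 16104662, minus strand) had 394, 847 and 554 CPM in the vehicle livers, against 377, 356 and 347 CPM after insulin. For both genes vehicle replicate 2 was far above the rest and vehicle replicate 1 only just above the insulin range. Their log2 fold changes were −0.96 ± 0.39 and −0.73 ± 0.31 (SE; edgeR adjusted p = 0.852 for each). Without vehicle replicate 2 both were −0.39 and neither met the criteria.

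Rps10, a small-subunit protein at the mRNA entry side (chromosome 17, 27630418 to 27636669, minus strand), was the sole member on the higher side. Its counts were 11, 6 and 13 with vehicle and 30, 26 and 21 with insulin, or 0.582, 0.368 and 0.620 against 1.35, 1.13 and 0.969 CPM. The groups did not overlap, at a level far below that of most members in every library. The log2 fold change was 1.12 ± 0.45 (SE; edgeR adjusted p = 0.852). The annotated gene shares its strand with a read-through gene, RPS10-NUDT3, and 2 pseudogene copies of its coding sequence held 97.9% of the counts summed over gene and copies. With the copies added the values were 37.7, 15.02 and 67.8 CPM across vehicle replicates 1 to 3, and insulin replicates 1 to 3 had 40.4, 40.2 and 45.2 CPM, and the log2 fold change was 0.06 ± 0.47 (edgeR adjusted p = 0.974).

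Over all members, the groups did not overlap for 8 that were lower with insulin (9.09% of 88, beside 6.04% of all genes) and for 1 that was higher (beside 6.25% of all genes). Besides the 6 above, these were Rpl6, Rps15a and Rps20. Without vehicle replicate 1, the vehicle library most like the insulin libraries, 18 members were lower by the criteria of the study and none was higher, beside 5.33% of all genes lower. Of the 18, 9 were of the large and 9 of the small subunit. Without vehicle replicate 2 there were 3 (Rps12, Rps27 and Rpl17, beside 2.06% lower), and without vehicle replicate 3 there were 7 in either direction (beside 6.51%). No member was called without insulin replicate 1 (beside 0.727%) or insulin replicate 3 (beside 0.875%), and Rpl17 alone was called without insulin replicate 2 (beside 1.05%). DESeq2 called 9 members lower (beside 2.68%) and edgeR with an offset for GC content 12 (beside 2.94%), while limma-voom called none (beside 1.59% in either direction).

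The large and small subunits did not part by more than the vehicle libraries parted from each other. Summed over members, the large subunit stood at 8720 CPM, 10327 CPM and 12623 CPM in vehicle replicates 1 to 3 and at 9362 CPM, 8672 CPM and 9045 CPM in insulin replicates 1 to 3. The small subunit stood at 6383 CPM, 7864 CPM and 10027 CPM (vehicle) compared with 7065 CPM, 6582 CPM and 6776 CPM (insulin). Vehicle replicate 3 was highest for both and vehicle replicate 1 lay below 2 of the insulin libraries for the large and below all 3 for the small subunit. The means were 10557 ± 1962 CPM and 9026 ± 346 CPM for the large subunit and 8091 ± 1832 CPM and 6808 ± 243 CPM for the small subunit (vehicle and insulin, SD, n = 3).

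**Figure D2:**
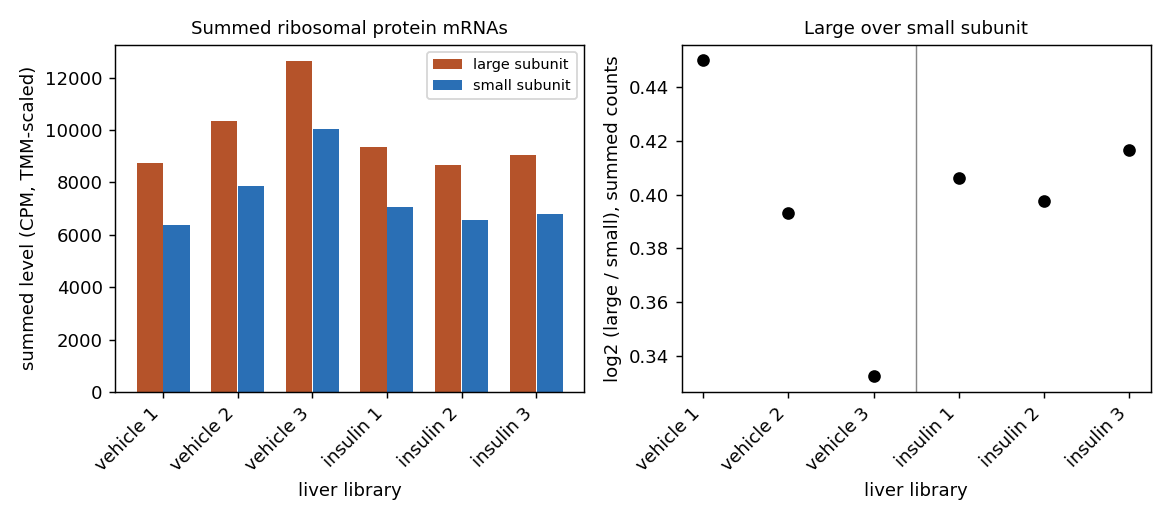
Left, summed level of the large- and small-subunit members in each library, as bars in CPM from 0. Right, log2 ratio of summed large- to summed small-subunit counts in each library, on an axis that does not start at 0; the insulin libraries lie at 0.40 to 0.42, inside the vehicle range of 0.33 to 0.45.

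The log2 ratio of summed large-subunit to summed small-subunit counts, which needs no scaling between libraries, was 0.45, 0.39 and 0.33 in vehicle replicates 1 to 3 and 0.41, 0.40 and 0.42 in insulin replicates 1 to 3. The insulin libraries lay within the vehicle range. The mean was 0.39 ± 0.06 with vehicle and 0.41 ± 0.01 with insulin (SD, n = 3). The difference between the subunit medians of the log2 fold changes, large minus small, was 0.11, smaller than the 0.18 by which it varied between libraries of a group (pooled SD).

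The spread of the members differed between the groups. Over the 88, the median coefficient of variation was 33.3% among the vehicle libraries and 6.93% among the insulin libraries, beside 36.2% and 12.8% over all genes tested. The highest vehicle library exceeded the lowest by more than 2-fold for 41 members. In the insulin libraries this held for 1, Rpl36al, which had 24 to 61 counts.

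**Figure D3:**
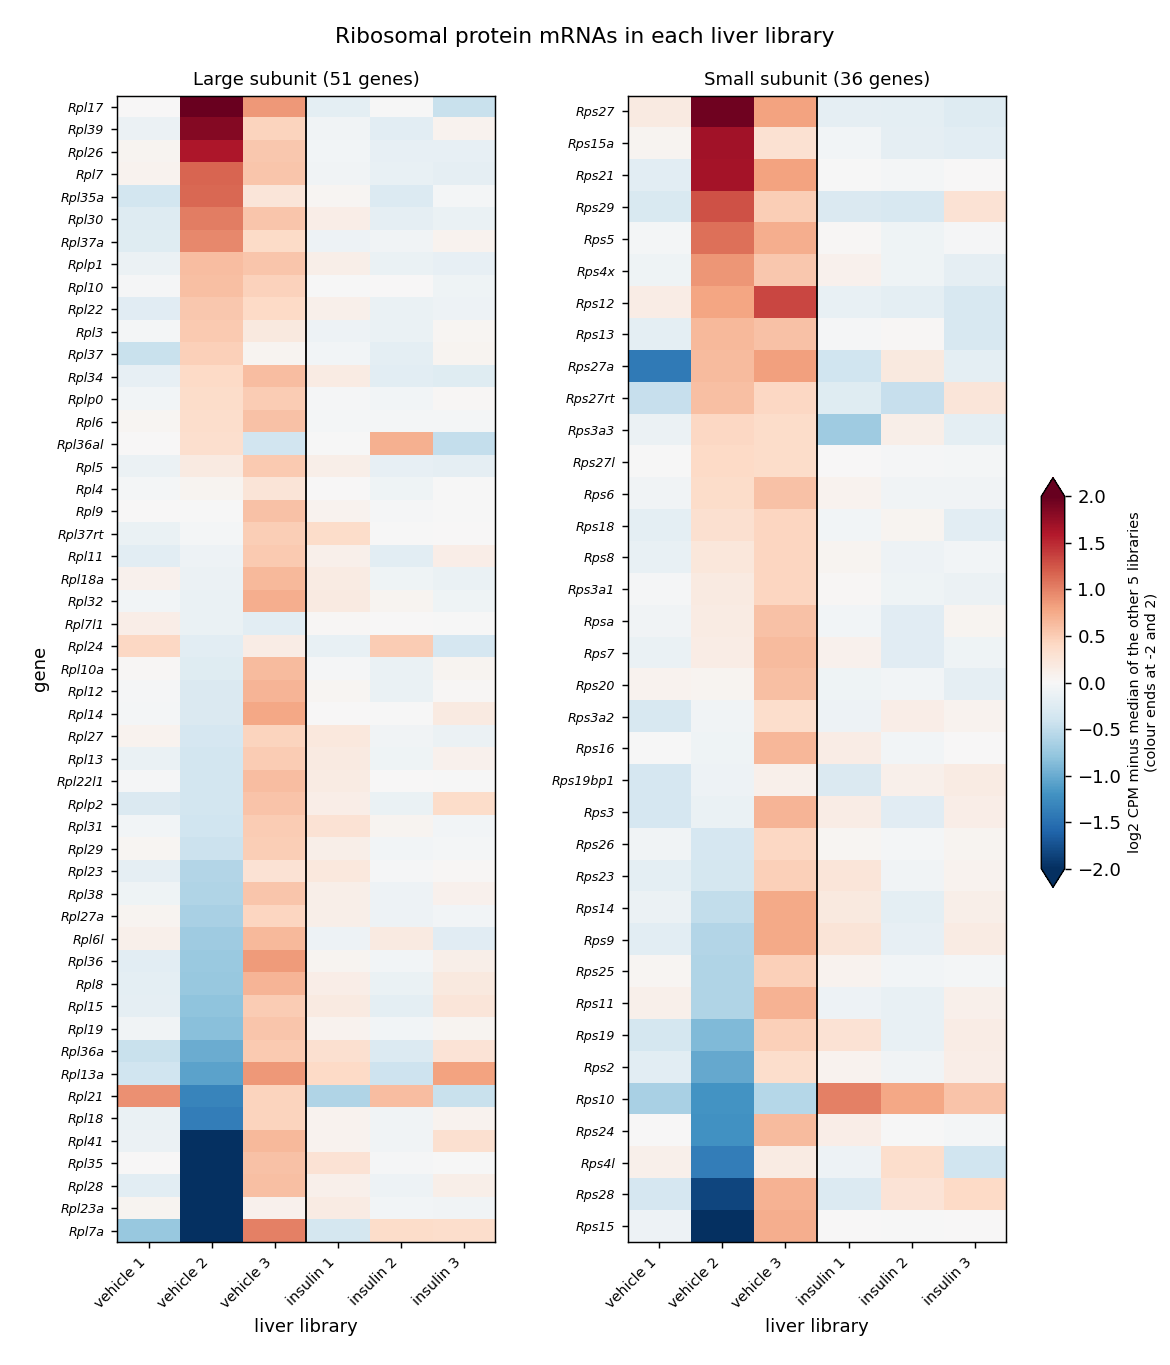
Deviation of 87 of the 88 tested members in each library from the median of the other 5 libraries, on the log2 CPM scale, with genes in rows ordered by their deviation in vehicle replicate 2 and colour that ends at −2 and 2. Vehicle replicate 3 is above 0 for all but 3 genes, vehicle replicate 2 runs from strongly positive to strongly negative, and the insulin columns stay pale.

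The members were higher almost evenly in vehicle replicate 3. Its median deviation from the other libraries was 0.53 for the large and 0.54 for the small subunit on the log2 scale, beside 0.00 over all genes. The SD in that library was 0.26 over members, beside 0.75 over all genes. The 3 members not above 0 were Rpl36al, Rpl7l1 and Rps10. Vehicle replicate 2 had a median deviation of −0.24 for the large and 0.15 for the small subunit but an SD over members of 1.22, beside 1.12 over all genes. There, 11 of the 88 members were more than 2-fold above and 14 more than 2-fold below the median of the other libraries. Of all genes tested, 11.8% were as far above and 20.7% as far below in that library, so such scatter was not particular to the members. In every other library at most 2 members were more than 2-fold above and at most 1 more than 2-fold below.

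Vehicle replicate 2 had the lowest level of all libraries for 41 members, 27 of the 51 tested in the large and 14 of the 37 in the small subunit. Rpl7a, which sits on the solvent side of that subunit, had 0.859 CPM (14 counts) there, 25.9 and 69.2 CPM in the other vehicle libraries and 34.4, 44.3 and 43.7 CPM in the insulin libraries. Rpl23a, at the mouth of the exit tunnel, had 5.65 CPM against 84.8 and 87.1 CPM in the other vehicle libraries and 91.5, 82.0 and 80.6 CPM with insulin. Rpl28 had 14.7 CPM against 139 and 229 CPM, and 161, 150.1 and 163 CPM with insulin. Each of these had all 5 other libraries at least 9.44 times as high. Rpl35 (11.4 CPM in vehicle replicate 2), Rpl41 (49.4 CPM), the shortest ribosomal protein, and in the small subunit Rps15 (39.6 CPM) and Rps28 (6.32 CPM) were also lowest there, with all other libraries at least 2.86 times as high. Rpl23a, Rpl7a and Rpl28 had the highest fold changes and the widest errors of the large subunit, at 0.52 ± 0.77, 0.35 ± 1.01 and 0.31 ± 0.75 (log2, SE; edgeR adjusted p = 0.873, 0.933 and 0.922). Without vehicle replicate 2 their signs turned, to −0.02, −0.21 and −0.22.

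On the other side, Rpl39, a small protein of the exit tunnel, had 397 CPM in vehicle replicate 2, 108 and 151 CPM in the other vehicle livers and 112, 101 and 117 CPM with insulin. Rps15a had 426 CPM there, 138 and 164 CPM in the other vehicle livers and 133, 121 and 119 CPM with insulin. Rps21 had 159.7 CPM, 43.8 and 88.2 CPM, and 50.3, 49.4 and 50.7 CPM. All 3 were highest in that one library, and their log2 fold changes of −0.99 ± 0.46, −0.96 ± 0.43 and −0.96 ± 0.42 did not meet the criteria (edgeR adjusted p = 0.852 for each).

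**Figure D4:**
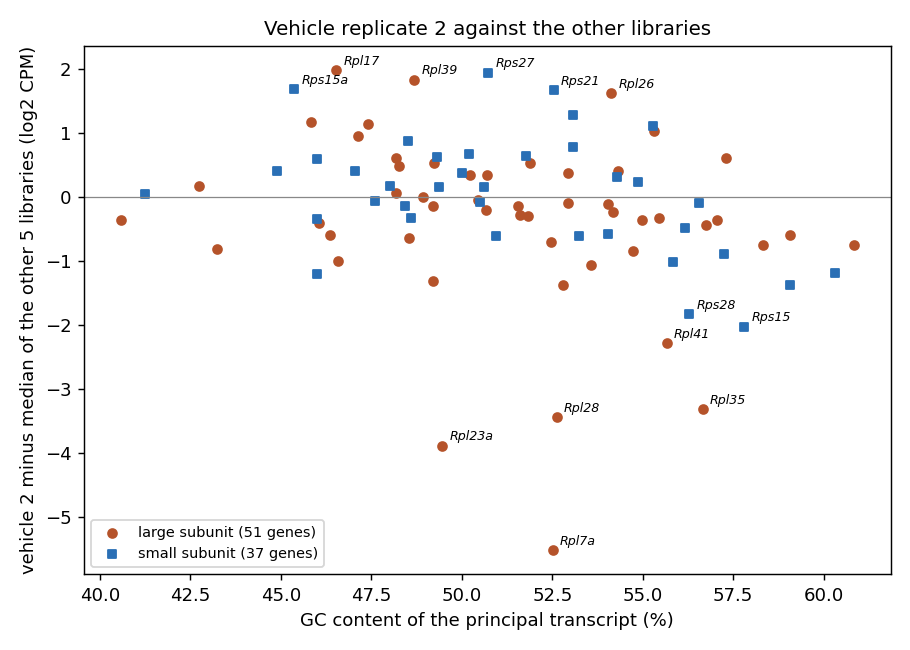
GC content of the principal transcript of each tested member against how far its log2 CPM in vehicle replicate 2 lay from the middle of the remaining 5 values. The GC-rich members tend to lie lower, and Rpl7a at −5.52 and Rpl23a at −3.88 lie far below others of like GC content.

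Across the 88 members, the deviation in vehicle replicate 2 had a Spearman correlation of −0.33 with the GC content of the transcript, beside −0.68 across all genes. These points come from the same libraries and are given as a description. The members' transcripts had a median GC content of 51.2% and a median length of 865.5 bases, beside 49.9% and 2827 bases over all genes tested. The correlation of the log2 fold changes of the members with GC content was 0.27, beside 0.57 over all genes. Without vehicle replicate 2 it was −0.02 for the members, beside 0.10 over all genes.

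Outside the 6, no member with a known special role met the criteria, and errors given below are SE. Rpl5 and Rpl11, which with 5S rRNA can bind Mdm2 and stabilise p53, had log2 fold changes of −0.24 ± 0.24 and −0.12 ± 0.25. Rps6, the S6 kinase substrate, had 319, 413 and 479 CPM in the vehicle livers, against 335, 319 and 317 CPM after insulin, so that vehicle replicate 1 lay within the insulin range. Its log2 fold change was −0.32 ± 0.24. The stalk proteins Rplp0, Rplp1 and Rplp2 had −0.30 ± 0.24, −0.39 ± 0.25 and 0.07 ± 0.28.

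Rps27a, which is made as a fusion with ubiquitin, was low in vehicle replicate 1 and not in vehicle replicate 2, at 90.2, 326 and 374 CPM in the vehicle livers. The insulin livers had 183, 241 and 211 CPM, between the vehicle values. The log2 fold change was −0.31 ± 0.47. Of the genes mutated in Diamond-Blackfan anaemia, a human red cell disorder, Rps19, Rps24, Rps26 and Rps29, had log2 fold changes of 0.22 ± 0.32, 0.04 ± 0.42, −0.03 ± 0.25 and −0.59 ± 0.34.

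Other core proteins did not meet the criteria either. Rpl3 and Rpl4, early-assembling proteins of the large subunit, had −0.29 ± 0.23 and −0.13 ± 0.22. Rpl10 and Rpl13 had −0.40 ± 0.25 and −0.01 ± 0.27, and Rpl41 had 0.26 ± 0.59. Rpl38, linked in mice to the translation of Hox mRNAs, had −0.01 ± 0.29, and Rpl13a, a component of an interferon-induced translational silencing complex, had 0.23 ± 0.41. In the small subunit, Rpsa, also known as a laminin receptor, had −0.30 ± 0.25, Rps3, which also acts in DNA repair, −0.14 ± 0.29, Rps14 −0.12 ± 0.32, Rps18 −0.25 ± 0.24, Rps2 0.22 ± 0.34 and Rps28 0.27 ± 0.49. Their adjusted p in edgeR ran from 0.852 for Rpl10 to 0.992 for Rpl38.

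Paralogs were compared with the gene they resemble. Rps27l, the p53-responsive paralog of Rps27, had 191, 252 and 248 CPM across vehicle replicates 1 to 3, and insulin replicates 1 to 3 had 191, 189 and 185 CPM, and did not show the 377 CPM that Rps27 reached in vehicle replicate 2. Its log2 fold change was −0.29 ± 0.22. Rpl22 and Rpl22l1, paralogs that regulate each other, had −0.27 ± 0.24 and −0.08 ± 0.28, and Rpl22 was the more abundant at 77.1 against 41.5 CPM per kb. Rpl36a (156 CPM per kb) had 0.24 ± 0.33 and its intronless paralog Rpl36al (1.32 CPM per kb) had 0.15 ± 0.45. Rps4l, a transcribed processed pseudogene related to Rps4x, had 0.25 ± 0.39, lowest in vehicle replicate 2 (9.76 CPM) and between 19.3 and 30.3 CPM elsewhere.

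Ribosomal protein genes have many processed pseudogenes, and reads can be assigned to either. A search of the annotated pseudogenes for copies of the coding sequences, at 95% identity or more over at least 80% of their length, found 541 copies of 79 members, of which 374 had a count. The copies held 6.77% of the counts summed over members and copies, 7.94% in the large and 5.18% in the small subunit. Some copies were themselves members, such as Rpl37rt, the copy of Rpl37. These count in the number of copies and the shares, but were not added in the refit below. They held more than 50% of the sum for 7 members: Rps12l1, Rps10, Rpl24, Rpl21, Rpl17, Rpl7a and Rpl36al. For Rpl17 the copies held 65.1%, with 3481, 3585 and 6075 counts with vehicle and 3853, 3552 and 3587 counts with insulin, so that vehicle replicate 2, the highest for the gene itself, was not the highest for its copies. With copies added, Rpl17 had 256, 504 and 421 CPM (vehicle) compared with 236, 226 and 218 CPM (insulin), and a log2 fold change of −0.80 ± 0.29 (edgeR adjusted p = 0.850). For Rpl7a the sums were 74.9, 21.3 and 139 CPM in the vehicle livers, against 82.7, 90.8 and 99.9 CPM after insulin, and vehicle replicate 2 was again the lowest. With the copies added, 5 members were lower by the criteria of the study and none was higher (beside 1.81% and 0.989% of all genes), and the 5 were those named above as lower.

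The other genes of the ribosome and its control were read from lists. Of the ribosomal proteins under other names, Rack1 had 324, 320.1 and 543 CPM across vehicle replicates 1 to 3, and insulin replicates 1 to 3 had 340.4, 312 and 352 CPM. Fau, the precursor of eS30, had 211, 224 and 401 CPM (vehicle) compared with 249, 235 and 225 CPM (insulin). Both were highest in vehicle replicate 3 and neither met the criteria (log2 fold change −0.24 for each; edgeR adjusted p = 0.856 and 0.859).

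Of 17 other mRNAs with a TOP start, mainly elongation and initiation factors, 13 were lower and 4 higher with insulin, none met the criteria, and the median was −0.20. Their median deviation in vehicle replicate 3 was 0.47, near that of the ribosomal proteins. The elongation factor Eef1a1 had 3638, 3776 and 5401 CPM in the vehicle livers, against 3613, 3696 and 3488 CPM after insulin, highest in vehicle replicate 3. The smallest p in the list was that of Tpt1, the translationally controlled tumour protein, with a log2 fold change of −0.52 ± 0.28 (SE; edgeR adjusted p = 0.852). Of 18 genes of the mTORC1, S6 kinase and LARP1 pathway, 8 were higher and 10 lower (median −0.04) and none met the criteria. Rps6kb1, which encodes S6 kinase 1, had 34.2, 60.8 and 31.4 CPM across vehicle replicates 1 to 3, and insulin replicates 1 to 3 had 28.5, 30.8 and 31.4 CPM.

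Ribosome assembly factors and RNA polymerase I did not share the higher level in vehicle replicate 3. Of 35 assembly factors, 23 were higher and 12 lower (median 0.08), and of 14 genes of RNA polymerase I and its factors, 11 were higher and 3 lower (median 0.25). None of either list met the criteria. Their median deviations in vehicle replicate 3 were −0.10 and −0.12. The insulin libraries were all above the vehicle libraries for 5 of 35 assembly factors and 3 of 14 RNA polymerase I genes. Both shares were larger than the 6.25% of all genes tested, and the difference was not tested. The 8 genes included Nob1 (11.2, 6.02 and 10.7 against 13.8, 12.8 and 15.2 CPM) and Polr1a (20.6, 16.4 and 21.9 against 26.4, 22.6 and 24.7 CPM). Of 77 tested mitochondrial ribosomal proteins, 43 were higher and 34 lower (median 0.04), and 1, Mrpl18, met the criteria, on the lower side. Of 61 tested pseudogenes of ribosomal proteins with -ps in their names, 41 were lower and 8 met the criteria, all lower, beside 1.86% of all genes lower by the same criteria.

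Among summed cell type markers, those of erythroid cells, B cells, hepatocytes and endothelial cells were highest in vehicle replicate 2 or 3. Neutrophil and stellate markers were also highest in vehicle replicate 2. Kupffer cell and bile duct markers were highest in insulin replicate 1, at 483 and 12.6 CPM. T cell and cycling-cell markers were highest in vehicle replicate 1. Erythroid markers summed to 627, 1588 and 413 CPM (vehicle) compared with 343, 478 and 312 CPM (insulin). By the criteria 4 of 5 tested were lower (beside 1.86% of all genes), and each of the 4 was highest in vehicle replicate 2. B cell markers summed to 5.18, 40.3 and 5.96 CPM in the vehicle livers, against 2.86 to 10.04 CPM after insulin, highest in vehicle replicate 2. Of 3 tested, 1 (Ms4a1) was lower by the criteria, beside the same 1.86% of all genes. Hepatocyte markers summed to 74887, 170551 and 110849 CPM across vehicle replicates 1 to 3, and insulin replicates 1 to 3 had 61783 to 77991 CPM. Most of each sum was Alb, at 138554 CPM in vehicle replicate 2. Serpina1a, Ttr and Cyp2e1 were also highest there, and Cps1 was highest in vehicle replicate 3. Apoa1 (3901 CPM) and Hnf4a (445 CPM) were lowest in vehicle replicate 2. By the criteria 1 of 7 (Serpina1a) was lower, beside 1.86% of all genes. Endothelial markers summed to 136, 125 and 217 CPM (vehicle) compared with 126 to 138 CPM (insulin), highest in vehicle replicate 3, as the ribosomal proteins were. No marker in the erythroid, B cell, hepatocyte and endothelial lists was at 0 in every library. The part of these cell types in the values of the ribosomal proteins was not tested.

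**Figure D5:**
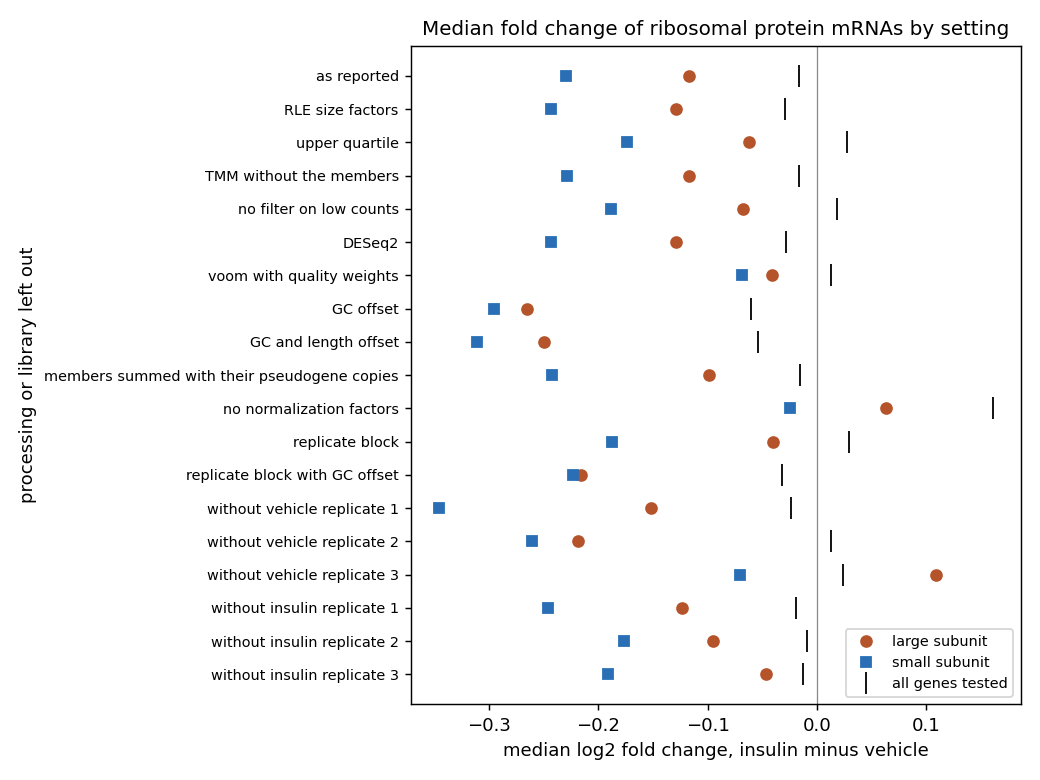
Median log2 fold change (insulin minus vehicle) of the large-subunit members (circles), small-subunit members (squares) and all genes tested (ticks) under each way of processing the counts and with each library left out. The small-subunit median stays below 0 in all settings shown, and the large-subunit median is above 0 without normalization factors and without vehicle replicate 3.

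Normalization moved the members together with all genes. The scaling factor was 0.829 for vehicle replicate 2 and 0.971 to 1.09 for the other libraries. Scaled to total counts alone, 43 of the 88 members were lower and 45 higher with insulin. The median over all genes was then 0.16, and the medians relative to it were −0.10 for the large and −0.19 for the small subunit. With the scaling used above they were −0.10 and −0.21. Relative to all genes the large subunit was above 0 in 1 setting, without vehicle replicate 3, at 0.09, and the small subunit was then at −0.09.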

How the data were processed

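Liver RNA was sequenced for 3 vehicle and 3 insulin libraries. The authors aligned reads to mm10 with Bowtie2 2.2.3, an aligner that opens no introns, and deposited raw counts per gene; the counter and its strand setting were not given in the sources used here. Reads from introns, antisense genes and intronless copies could therefore be mixed; only the intronless copies were checked, through a search with BLAST+ 2.17.0. Gene positions, lengths and GC content came from GENCODE M21 (APPRIS principal transcript); 54495 of 54532 genes matched. The members, lists and rule for named genes (members past the criteria; in each subunit the 3 highest and 3 lowest fold changes among members with at least 50 counts on average, and the 5 most abundant per kilobase; members of known special role; at most 4 genes per list) were chosen with earlier results of these data known; single values of some genes are not reported here. Genes were kept by filterByExpr (minimum count 10, minimum total 15) and scaled by TMM, and CPM are counts divided by the scaled library size. Groups were compared with edgeR 4.0.16 (glmQLFTest, R 4.3.3) and Benjamini-Hochberg adjustment over all genes, with DESeq2 1.42.0 and limma-voom 3.58.1 as alternatives; code was tested on simulated data. Deviations used log2 CPM with a prior count of 2. Fewer counts in a library widen its error, least for abundant members.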

Additional observations from a re-analysis of the deposited data

How the results depend on the processing

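The number of members that met the criteria of the study (6) was 0 with voom quality weights, 12 with an offset for GC content and 0 to 18 when 1 library was left out: leaving out vehicle replicate 1 gave 18, vehicle replicate 2 gave 3 and vehicle replicate 3 gave 7, and an insulin replicate gave 0, 1 or 0. It was 4 to 9 with other scaling, no count filter, DESeq2, GC and length offsets, canonical members alone, copies added or no normalization factors, and the last 2 were chosen after seeing the data. The subunit medians moved by less than the pooled SD between libraries of a group in every alternative (0.29 large, 0.24 small). That SD was larger than the medians themselves, so moves below it include changes of sign. The large-subunit median was 0.11 without vehicle replicate 3 and 0.06 without normalization factors. The labels do not say whether the replicate numbers pair the libraries, and the main fit used no pairing. The deviations of same-numbered libraries had correlations of −0.04, 0.07 and 0.02. With 3 libraries a group such correlations cannot decide the question. Of the 3 vehicle libraries, only replicate 2 correlated best with its own number. With a replicate block 3 members met the criteria, all lower, beside 0.882% of all genes lower in that fit. Rps12, Rps27 and Rpl17 were among those called in every alternative that called at least 3, except Rps12 without vehicle replicate 3.

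Named members without a call changed sign as follows, and the cause was not tested. With the GC offset, Rps4l was −0.14, Rps2 −0.041, Rpl22l1 0.066, Rplp2 −0.21 and Rps19 −0.14, and with GC and length offsets −0.15, −0.035, 0.11, −0.22 and −0.16. With the replicate block and GC offset they were −0.17, −0.028, 0.24, −0.19 and −0.12, with Rps26 at 0.014. With upper-quartile scaling Rpl13 was 0.023, Rpl38 0.021 and Rps26 0.0083, without the filter 0.018, 0.019 and 0.0034, and with the replicate block 0.023, 0.050 and 0.0014. With voom Rpl13 was 0.020, Rps3 0.044, Rps24 −0.016 and Rps27a 0.64. Without normalization factors Rpl13 was 0.15, Rps14 0.042, Rpl4 0.053, Rpl11 0.054, Rpl22l1 0.077, Rpl38 0.14, Rps3 0.038 and Rps26 0.13, and with copies added Rpl38 was 0.016.

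Over the 6 fits that each left out 1 library, log2 fold changes ranged from −0.017 to 0.90 for Rpl23a, −0.21 to 1.60 for Rpl7a, −0.22 to 1.04 for Rpl28, −0.13 to 0.85 for Rps28, −0.084 to 0.47 for Rps4l, −0.050 to 0.56 for Rps2, −0.17 to 0.24 for Rpl13, −0.33 to 0.26 for Rps14, −0.24 to 0.10 for Rpl11, −0.064 to 0.73 for Rpl13a, −0.27 to 0.23 for Rpl22l1, −0.0084 to 0.63 for Rpl36a, −0.25 to 0.41 for Rpl36al, −0.23 to 0.30 for Rpl38, −0.20 to 0.89 for Rpl41, −0.075 to 0.37 for Rplp2, −0.30 to 0.17 for Rps3, −0.022 to 0.59 for Rps19, −0.31 to 0.51 for Rps24, −0.18 to 0.19 for Rps26 and −0.72 to 0.026 for Rps27a.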
